A study of Mus musculus with 472 samples.

Results

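The double-positive cells described here are single mouse retinal ganglion cells (RGCs) that carried RNA of both Hpcal4 and Kctd8 at 10 CPM or more, CPM being counts per 1000000 gene counts of the cell. They made up 22.2% of all cells (exact 95% interval 18.6% to 26.3%), in 5 groups of library names, called runs here, with 50, 27, 18, 3 and 7 such cells, and were set against all other cells. All cells came from C57BL/6J mice 7 to 9 weeks old, formed 1 untreated group, and were patched in the flat-mounted retina, recorded under spots of blue and green light and aspirated. Smart-seq2, which covers whole transcripts and attaches no molecular identifiers, turned their RNA into libraries read as 150 bp pairs. The labels name no animals, so the cells together counted as 1 sample: no test was run, values describe these cells, and intervals cover counting error only. Light responses and morphology were not used here.

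RGCs are the output neurons of the retina. Their axons form the optic nerve, and their many types differ in shape, light response and gene expression. Hpcal4 encodes a neuronal calcium sensor, a small protein that binds calcium through EF hands and moves to membranes. Kctd8 encodes an auxiliary subunit that attaches to the GABA-B receptor, a metabotropic receptor for the inhibitory transmitter GABA, and changes the speed of its response. A further pair of genes was listed with them as markers. Pkia encodes a peptide inhibitor of protein kinase A, the main effector of cAMP. Caln1 encodes calneuron 1, a calmodulin-like calcium-binding protein.

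Hpcal4 and Kctd8 chose the cells, so their values are a description only. Hpcal4 (chromosome 4, 123183227 to 123194701 on mm10, plus strand) ran from 10.9 CPM over a median of 82.8 to 832 CPM in double-positive cells, against 0 over a median of 0 to 1721 CPM in other cells. Kctd8 (chromosome 5, 69109285 to 69341679, minus strand) ran from 11.05 over 75.2 to 475 CPM in double-positive cells, against 0 over 1.91 to 602 CPM in other cells. Both genes therefore reached levels outside the chosen cells that were as high as inside them, but not together in 1 cell. Hpcal4 alone was at or above 10 CPM in 10.17% of all cells, Kctd8 alone in 29.9% and neither in 37.7%. The chosen cells were 68.6% of all Hpcal4 cells and 42.7% of all Kctd8 cells. Independent shares of the 2 genes give 79.7 double-positive cells over all cells and 82.96 within runs. Within 5 bins of cells ranked by their number of genes at 10 CPM or more, they give 96.6. The 50, 27, 18, 3 and 7 cells found in the runs were together more than each value, and closest to that within bins. Whether the 2 genes meet more often than independent shares give was not tested.

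Few cells lay near the limit. In 13 cells just inside, the lower of the 2 genes was at 10.9 to 14.6 CPM with a median of 13.2 CPM, and 9 of these cells were positive for Pkia and 9 for Caln1. In 11 cells just outside, the lower gene was at 5.04 to 9.55 CPM with a median of 6.64 CPM, and 8 were positive for Pkia and 8 for Caln1.

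**Figure D1:**
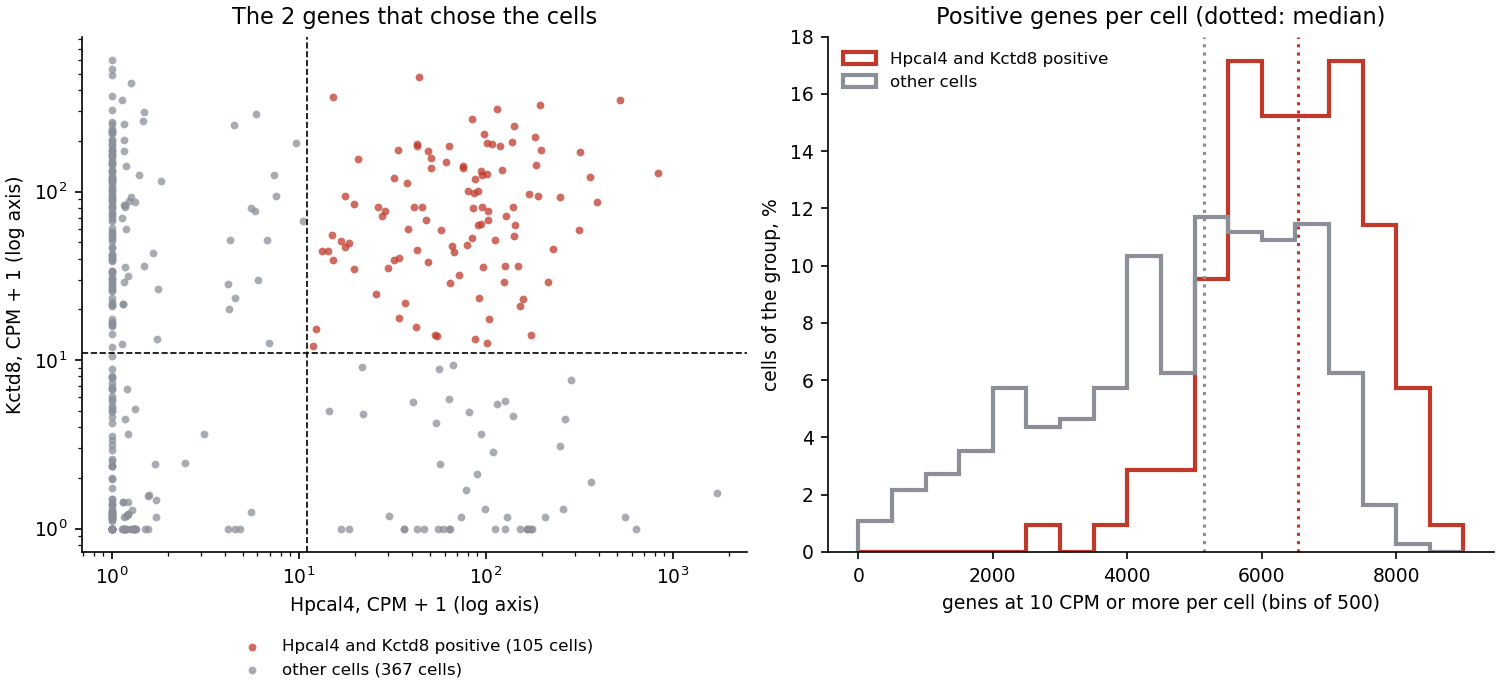
Left, Kctd8 against Hpcal4 in CPM + 1 on log axes, 1 point per cell, with dashed lines at the limit: the double-positive cells (red) fill the area above both limits and the other cells (grey) lie along the axes and below at least 1 limit. Right, the share of each group (vertical axis, %) by the number of positive genes per cell (horizontal axis), with medians of 6535 genes in double-positive cells and 5137 in other cells as dotted lines.

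Double-positive cells were richer libraries. Counting as positive any gene with 10 CPM or more in a cell, double-positive cells had 2680 to 8937 positive genes with a median of 6535, against at most 8006 with a median of 5137 in other cells. The median cell held 5695363 gene counts among double-positive cells and 5002197 among other cells, with 0 and 7 cells under 1000000. ERCC spike-ins, synthetic RNAs added in a fixed amount, took a median of 0.406% of counts in double-positive cells and 0.938% in other cells. Medians of ribosomal RNA (16.2% and 17.7%) and mitochondrial RNA (0.345% and 0.346%) were close. Ranked by positive genes into 5 bins, 2.11%, 7.45%, 24.5%, 27.96% and 48.96% of cells were double-positive, from the poorest bin to the richest.

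Because of this gradient, most shares in other cells are given in 2 forms below. The plain share counts all other cells alike. The weighted share gives each other cell a weight so that the group has the same mix of the 5 bins as the double-positive cells. Across the 11147 genes positive in 10% or more of all cells, the plain share was higher in double-positive cells for 96.04% of genes, with a median difference of 14.8 percentage points. Against the weighted share 61.4% of genes were higher, with a median difference of 1.42 points. A single gene's plain difference has to be read against that general shift.

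The runs, called A to E, were read from library names: A, D and E from a flow cell and lane, B and C from an order number. Whether B and C are each a single sequencing run is not stated. Double-positive cells were 21.4% of cells in run A, 27 of 98 in B (27.6%), 18 of 62 in C (29.03%), 3 of 59 in D (5.08%) and 7 of 19 in E (36.8%). Run D held the fewest, and there the other cells had a median of 2829.5 positive genes, the lowest of the 5 runs.

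The chosen cells carried the RNA of ganglion cells. Of 12 listed pan-RGC genes every double-positive cell had 3 or more, against 98.4% of other cells. Slc17a6, which loads glutamate into synaptic vesicles, was positive in 97.1% of double-positive cells and 90.7% of other cells (98.3% weighted). Rbpms, an RNA-binding protein used as an RGC marker, was positive in 96.2% and 88.01% (98.1% weighted). Thy1 and Tubb3, a surface protein and a neuronal tubulin, were positive in all double-positive cells, against 97.8% and 87.7% of other cells (99.7% and 98.3% weighted). None of the 12 genes passed the rule of size given below, and their median difference was 6.42 points plain and -0.69 points weighted.

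The other listed markers were frequent in double-positive cells without being limited to them. Pkia and Caln1 were chosen on these same cells, so their values are no independent check of the choice. Pkia ran from 0 over a median of 113.6 to 548 CPM in double-positive cells, against 0 over 8.15 to 1073 CPM in other cells. Pkia was positive in 84.8% of double-positive cells (76.4% to 91.03%) and 48.2% of other cells (43.01% to 53.5%, and 63.4% weighted). Caln1 ran from 0 over 114.4 to 823 CPM in double-positive cells, against 0 over 42.2 to 1126 CPM in other cells. Caln1 was positive in 82.9% (74.3% to 89.5%) and 58.04% (52.8% to 63.1%, and 72.9% weighted). The groups overlapped over nearly their whole range, and more than 4 in 10 other cells had each gene.

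Both markers followed each of the 2 rule genes. Pkia was positive in 84.8% of cells with both, 64.6% with Hpcal4 only, 63.1% with Kctd8 only and 32.02% with neither. Caln1 was positive in 82.9%, 56.3%, 71.6% and 47.8% in the same order. The number of positive genes was likewise highest with both genes and lowest with neither, with medians of 6535 with both, 5356.5 with Hpcal4 only, 5914 with Kctd8 only and 4184 with neither, and its part in these shares was not tested apart from the weighting. Pkia was more frequent in double-positive cells in all 5 runs and Caln1 in 4, the exception being run E with 5 of 7 double-positive cells positive and 83.3% of other cells. Neither marker reached a mean level 2 times that of other cells, the ratios being 1.91 for Pkia and 1.38 for Caln1. The overlapping antisense genes Gm37918 at Pkia and A330070K13Rik at Caln1 cannot be told apart from them, since the strand setting of the counting is not given.

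To compare all genes, a gene was called higher where its mean CPM in double-positive cells was 2 times that of other cells or more and its share of positive cells was 20 points higher or more, and lower by the mirror rule. Of 11147 compared genes 47 were higher (0.422%) and 0 were lower (0%). Against weighted other cells 21 were higher (0.188%) and 10 were lower (0.0897%), and 18 of the 21 were among the 47. With the other cells weighted to the run mix instead, 31 were higher (0.278%), of which 26 were among the 47, and 0 were lower. By the ratio of means alone, with no condition on shares, 1.26% of genes were higher and 1.35% lower. Without run A 55 double-positive cells were left and 2.44% of genes were higher, 38 of the 47 among them. The calls also moved with the scaling: with edgeR's TMMwsp scaling in place of total counts, which put the median log2 ratio of all genes at -0.37, against 0.07 with total counts, 97 cells were double-positive, 0.965% of genes were higher and 0.00919% lower, and 12 of the 47 were among the higher. Few genes thus passed this rule in the main comparison. How many and which ones were called depended on the rule itself, the number of genes per cell, the runs kept and the scaling.

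**Figure D2:**
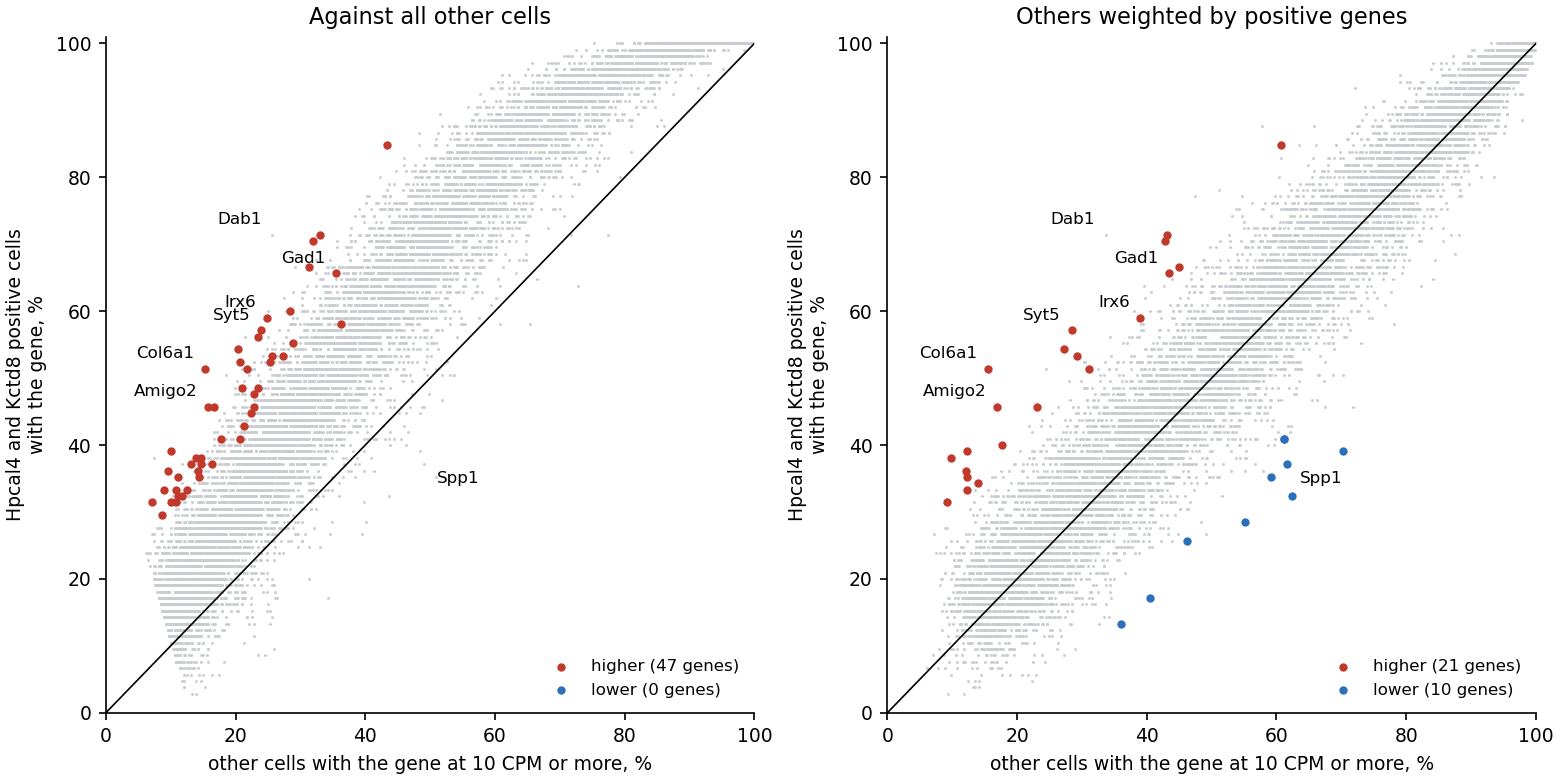
Share of double-positive cells (vertical axis, %) against the share of other cells (horizontal axis, %) with each of 11147 genes at 10 CPM or more, 1 point per gene, with the line of equal shares. On the left, against all other cells, the cloud lies above the line and 47 genes are called higher (red) and 0 lower; on the right, against other cells weighted by positive genes, it lies along the line and 21 are higher and 10 lower (blue).

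Genes of synaptic proteins among the 47 are put together here after their values were seen. Syt5, a calcium sensor of vesicle release, ran from 0 over 28.7 to 383.6 CPM in double-positive cells, against 0 over 0 to 648 CPM in other cells. The share positive was 57.1% (47.1% to 66.8%) of double-positive cells and 23.98% (19.7% to 28.7%) of other cells, 28.4% weighted. Syt16, a relative of Syt5, ran from 0 over 18.04 to 375.9 CPM in double-positive cells, against 0 over 0 to 377.8 CPM in other cells, and was positive in 54.3% and 20.4% (27.2% weighted). For both, more than 5 in 10 double-positive cells were positive and the median other cell was at 0. Nptxr, the receptor of the neuronal pentraxins that gather glutamate receptors at synapses, was positive in 70.5% and 31.9% (42.9% weighted), and shares its locus and strand with Npcd, so reads of the 2 genes may be split by the counting. Exoc6, a subunit of the exocyst that tethers vesicles, was positive in 52.4% and 20.7% (33.6% weighted), and its weighted ratio of means, 1.496, was below 2.

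Genes of cell surface and matrix proteins among the 47 are likewise put together after their values were seen. Col6a1, a chain of collagen VI, ran from 0 over 10.45 to 880 CPM in double-positive cells, against 0 over 0 to 2104 CPM in other cells. Positive cells made up 51.4% (41.5% to 61.3%) and 15.3% (11.7% to 19.4%), and weighting left the share of other cells at 15.5%. Amigo2, an adhesion protein with leucine-rich repeats, was positive in 45.7% and 15.8% (16.96% weighted). Both differences were thus about as large after weighting. Col6a1 met Syt5 in 39 double-positive cells, where independent shares give 30.9, and in 20 other cells, where they give 13.4. Lrtm2, another leucine-rich membrane protein, was positive in 39.05% and 10.1% (12.3% weighted), and Kirrel3, an immunoglobulin-type adhesion protein, in 36.2% and 9.54% (12.2% weighted). Slit1, a secreted ligand that guides axons, was positive in 45.7% and 16.6% (23.1% weighted). Amigo2, Lrtm2 and Kirrel3 overlap genes on the opposite strand (Pced1b, Cacna2d4 and Kirrel3os among them).

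Calcium and cAMP signalling gave few further calls. Kcnip3, a calcium sensor related to Hpcal4 that also modulates Kv4 channels, ran from 0 over 11.8 to 414.8 CPM in double-positive cells, against 0 over 0 to 1023 CPM in other cells. Its RNA was at 10 CPM or more in 51.4% (41.5% to 61.3%) and 21.8% (17.7% to 26.4%), 31.03% weighted, and Kcnip3 was the single one of 10 compared neuronal calcium sensors past the rule, against 0.422% of all compared genes. Hpca, Ncald and Hpcal1, sensors of the same family, were positive in 94.3%, 81.9% and 73.3% of double-positive cells and 69.5%, 53.7% and 49.6% of other cells, which weighting brought to 82.6%, 71.4% and 68.2%. Kcnip2 went the other way in level, with a mean of 12.2 CPM in double-positive cells and 40.95 CPM in other cells, at shares of 20% and 20.4% (31.07% weighted). Pde1c, a phosphodiesterase switched on by calmodulin, was positive in 66.7% and 31.3% (44.99% weighted) and was the single one of 11 compared genes of cAMP synthesis and breakdown past the rule, against the same 0.422%. Single calls in lists of this size are a description and set neither list apart.

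The partners of the rule genes and of Pkia were not called. Of 8 compared genes of the GABA-B receptor complex 0 were higher, with Gabbr1 positive in 81.9% and 59.7% (78.6% weighted) and Gabbr2 in 57.1% and 40.3% (53.9% weighted). Kctd16 and Kctd12, the related auxiliary subunits, were positive in 95.2% and 19.05% of double-positive cells, against 85.8% and 15.3% of other cells (98.3% and 25.1% weighted). Of 12 compared genes of the protein kinase A system 0 were higher. The catalytic subunit Prkacb had the largest mean ratio named in that list apart from Pkia, 1.68, with shares of 97.1% and 73.8% (91.5% weighted). Against the background of 0.422% higher genes, a list of 8 to 12 genes with no call does not stand apart.

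The remaining genes of the 20 with the largest differences had mixed roles. Irx6, an Iroquois homeobox transcription factor (chromosome 8, 92674288 to 92680956), ran from 0 over 21.02 to 523 CPM in double-positive cells, against 0 over 0.144 to 315.97 CPM in other cells. Positive cells were 59.05% (49.02% to 68.5%) and 24.8% (20.5% to 29.5%), 38.97% weighted, and by class 59.05% with both genes, 22.9% with Hpcal4 only, 29.8% with Kctd8 only and 21.3% with neither. Cells with Hpcal4 only thus had Irx6 about as often as cells with neither, and cells with Kctd8 only stood between these and the double-positive cells. Irx6 stayed past the rule in 25 of 26 alternatives tried. Some of these, such as looser gene filters, could not change the call, and Irx6 was picked on these same cells. Against weighted other cells it passed narrowly, with a difference of 20.07 points and a ratio of means of 2.06. Bex1, a small X-linked protein of neurons, was positive in 71.4% and 32.97% (43.2% weighted), and Cnr1, the cannabinoid receptor of nerve terminals, in 48.6% and 20.98% (30.8% weighted). Dkc1, a pseudouridine synthase, was positive in 56.2% and 23.4% (37.2% weighted). Dkc1 and Cnr1 did not pass the rule against weighted other cells, with differences of 18.96 and 17.76 points. Lrrc61, Fam210b and Gse1 were positive in 60%, 53.3% and 52.4% of double-positive cells, against 28.3%, 25.6% and 25.3% of other cells, and none of these 3 passed the rule against weighted other cells (46.6%, 40.7% and 36.3%).

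**Figure D3:**
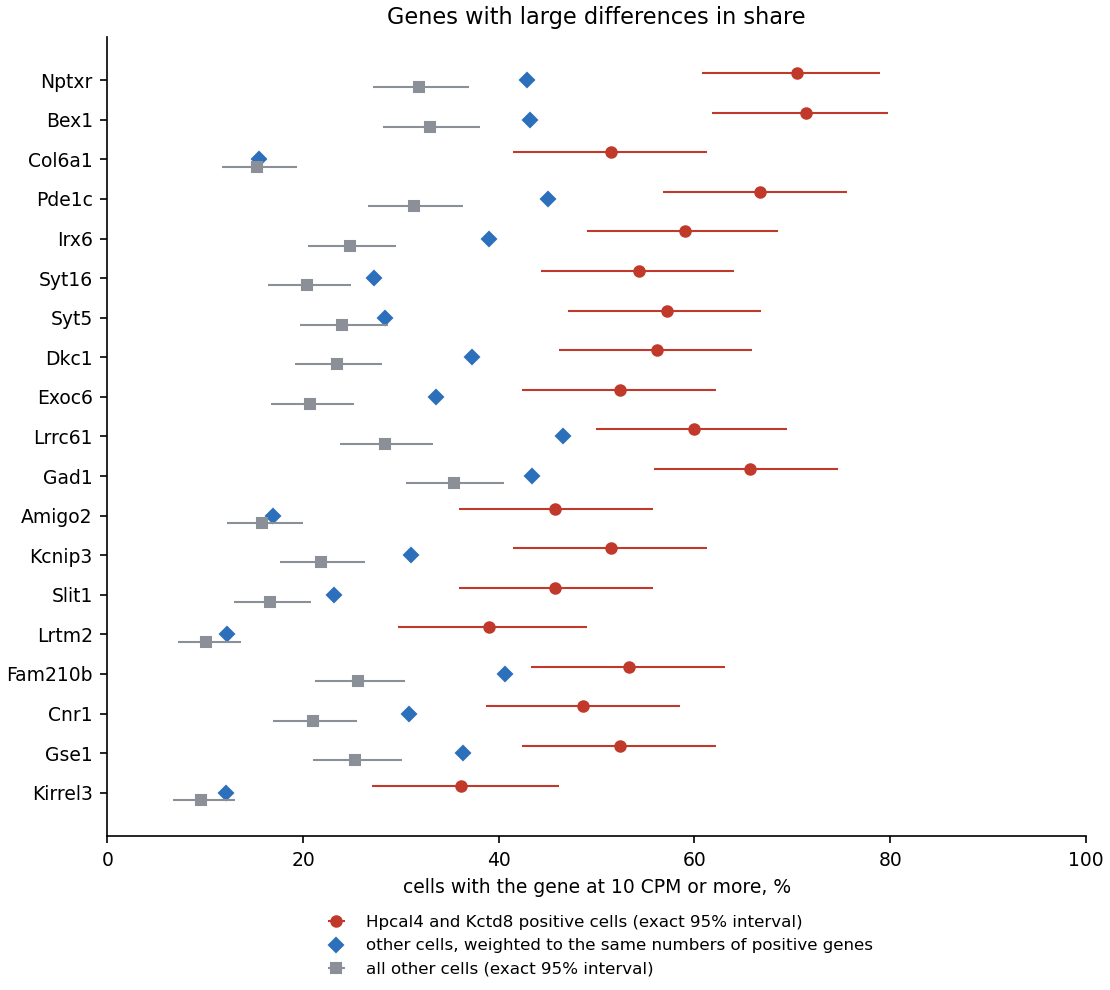
Share of cells (horizontal axis, %) with each of 19 genes of large difference at 10 CPM or more: double-positive cells (red, exact 95% interval), other cells weighted to the same numbers of positive genes (blue) and all other cells (grey, exact 95% interval). For Nptxr these are 70.5%, 42.9% and 31.9%, while for Col6a1 and Amigo2 the weighted and plain shares of other cells nearly coincide.

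The 20 genes marked the chosen cells as a set but no cell had all of them. A double-positive cell was positive for 2 to 19 of the 20 with a median of 11, against medians of 6 in cells with Hpcal4 only, 6 with Kctd8 only and 3 with neither. These counts follow from how the genes were picked. With TMMwsp scaling 9 of the 20 stayed past the rule, among them Irx6, Syt16, Syt5, Dkc1, Amigo2, Kcnip3, Lrtm2 and Kirrel3. Of the 20 genes 15 were more frequent in double-positive cells in all 5 runs and 4 in 4 runs, and Fam210b was so in 3 runs. These run counts are a description too, as the genes were picked for their differences in the same cells. Over all runs, 96.04% of all compared genes had a higher plain share in double-positive cells. Runs D and E, with 3 and 7 double-positive cells, gave the exceptions. Among them, Syt16 was positive in 0 of the 3 in run D. In run E Col6a1 was positive in 3 of the 7 and 50% of the other cells, and Cnr1 in 1 of the 7 and 25% of the other cells.

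**Figure D4:**
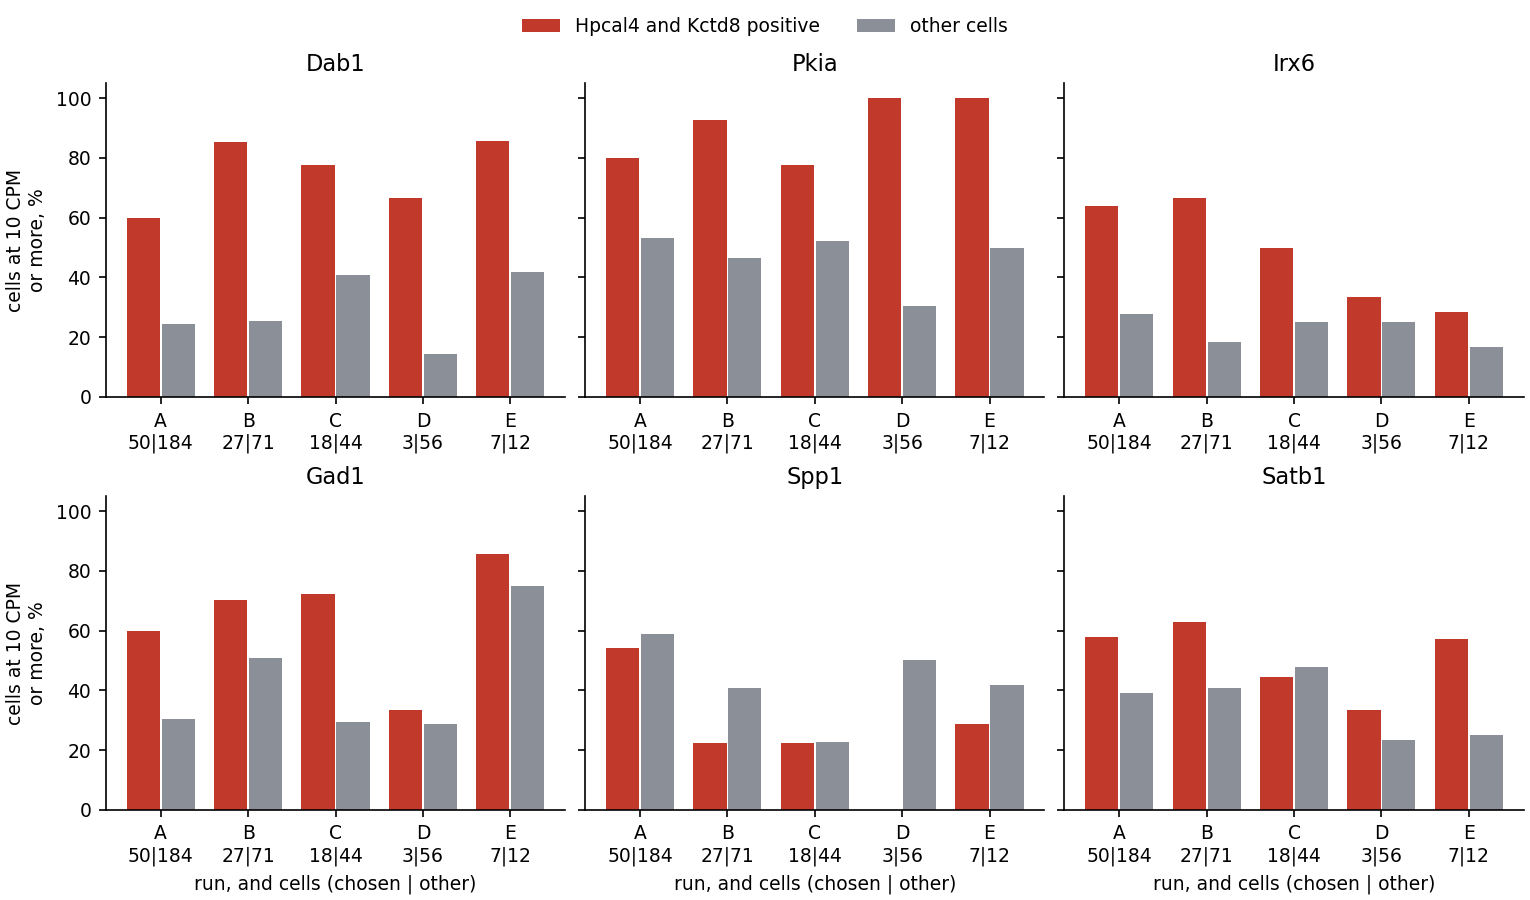
Share of cells at 10 CPM or more (vertical axis, %) for 6 genes in double-positive cells (red) and other cells (grey) of each run, with the number of each group under the bars. Dab1 and Pkia are more frequent in double-positive cells in all 5 runs, Spp1 is less frequent in all 5, and Satb1 is less frequent in run C alone.

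Some genes were chosen after their values were seen. Dab1, the adaptor of the reelin receptors, had a larger share difference than each of the 47 but missed the ratio of 2. It ran from 0 over 35.3 to 478 CPM in double-positive cells, against 0 over 0 to 774 CPM in other cells, and was positive in 71.4% (61.8% to 79.8%) and 25.6% (21.2% to 30.4%), 33.7% weighted. The ratio of means was 1.81. It was more frequent in double-positive cells in every run, by 35.5 to 59.8 points. Camk1g, a calmodulin-dependent kinase, and Shisa9, an auxiliary protein of AMPA receptors, were positive in 31.4% and 35.2% of double-positive cells, against 7.08% and 11.2% of other cells (9.16% and 12.3% weighted). Mal2, Tenm1 and Tmem215 passed the rule against weighted other cells only: Mal2, a membrane traffic protein, was positive in 38.1% and 9.82% weighted, Tenm1, a teneurin adhesion protein, in 40% and 17.7% weighted, and Tmem215 in 34.3% and 13.9% weighted.

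Spp1, the secreted protein osteopontin and a marker of alpha ganglion cells, was among the 10 genes that were lower against weighted other cells. It ran from 0 over a median of 0.859 to 3800 CPM in double-positive cells, against 0 over 5.87 to 7132 CPM in other cells. Its share was 37.1% of double-positive cells (27.9% to 47.1%) and 49.05% of other cells (43.8% to 54.3%), 61.7% weighted, and the ratio of means was 0.55 plain and 0.47 weighted. The plain difference of -11.9 points did not pass the rule. Spp1 was less frequent in double-positive cells in all 5 runs, though its share was 22.2% against 22.7% in run C and 54% against 58.7% in run A. The other named genes among the 10 were Rab37, a small GTPase (32.4% and 62.4% weighted), Cav2, a caveolin (28.6% and 55.1% weighted), and Ppp1r1c, an inhibitor of protein phosphatase 1 (13.3% and 36.1% weighted), and the remaining 6 are predicted genes.

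All 5 alpha RGC markers lay below the weighted other cells. Kcng4, a silent potassium channel subunit, was positive in 29.5% of double-positive cells and 25.6% of other cells (42.3% weighted), Scn4b, a sodium channel beta subunit, in 40% and 36.5% (54.4% weighted), Nefh, the heavy neurofilament, in 84.8% and 76.3% (92.7% weighted), and Pvalb, the calcium buffer parvalbumin, in 71.4% and 77.4% (88.2% weighted). The list's median difference was 3.49 points plain and -14.4 points weighted, so its direction turned with the weighting, against a median over all genes of 14.8 and 1.42 points. Among other cells, Kcng4 was positive in 8.6% in the bin poorest in positive genes and 61.2% in the richest, and Spp1 in 37.6% and 77.6%. Weighting towards rich bins therefore raises the shares that these markers are set against. With plain shares 0 of the 5 were called, and with weighted shares Spp1 alone. Cells positive for both Spp1 and Kcng4 were 22.5% of all cells. Of them 22 were double-positive, which is 20.95% of the double-positive cells and 20.8% of the Spp1 and Kcng4 cells. Independent shares give 21.97 within runs and 31.9 within bins of positive genes. Within double-positive cells independent shares of Spp1 and Kcng4 give 11.5 cells with both, against the 22 found, and in other cells they give 46.1, against 84 found.

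Class transcription factors were spread over the chosen cells. Of 14 listed factors a double-positive cell had a median of 3, against 2 in other cells, and 4 double-positive cells (3.81%) and 49 other cells (13.4%, and 3.07% weighted) had none. Eomes, Foxp2, Tbr1, Neurod2 and Irx3 are used to tell RGC classes apart. At least 1 of these 5 was positive in 74 double-positive cells (70.5%) and 42.8% of other cells (52.4% weighted), and 2 or more in 20 double-positive cells (19.05%) and 8.45% of other cells (11.7% weighted). The rule genes thus did not select cells of 1 such class. None of the 10 compared factors passed the rule of size.

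The factors differed in direction. Satb1, a chromatin organizer of direction-selective ganglion cells, was positive in 56.2% of double-positive cells and 37.6% of other cells (44.2% weighted). Irx3 and Irx4, relatives of Irx6, were positive in 28.6% and 29.5% of double-positive cells, against 11.4% and 11.2% of other cells (16.5% and 15.5% weighted), and met in 16 double-positive cells, where independent shares give 8.86, and in 8 other cells, where they give 4.69. Neurod2 was positive in 25.7% and 9.54% (10.8% weighted) and Pou4f2, a factor of ganglion cell birth, in 40.95% and 24.5% (29.9% weighted). Bnc2, a zinc finger factor, was the one listed factor less frequent in both forms, at 16.2%, against 25.1% plain and 33.6% weighted, and by class at 16.2% with both genes, 35.4% with Hpcal4 only, 23.4% with Kctd8 only and 23.6% with neither. Tbr1 was positive in 19.05% and 16.1% (23.4% weighted) and Eomes in 9.52% and 8.45% (8.61% weighted), differences of under 5 points in each form.

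**Figure D5:**
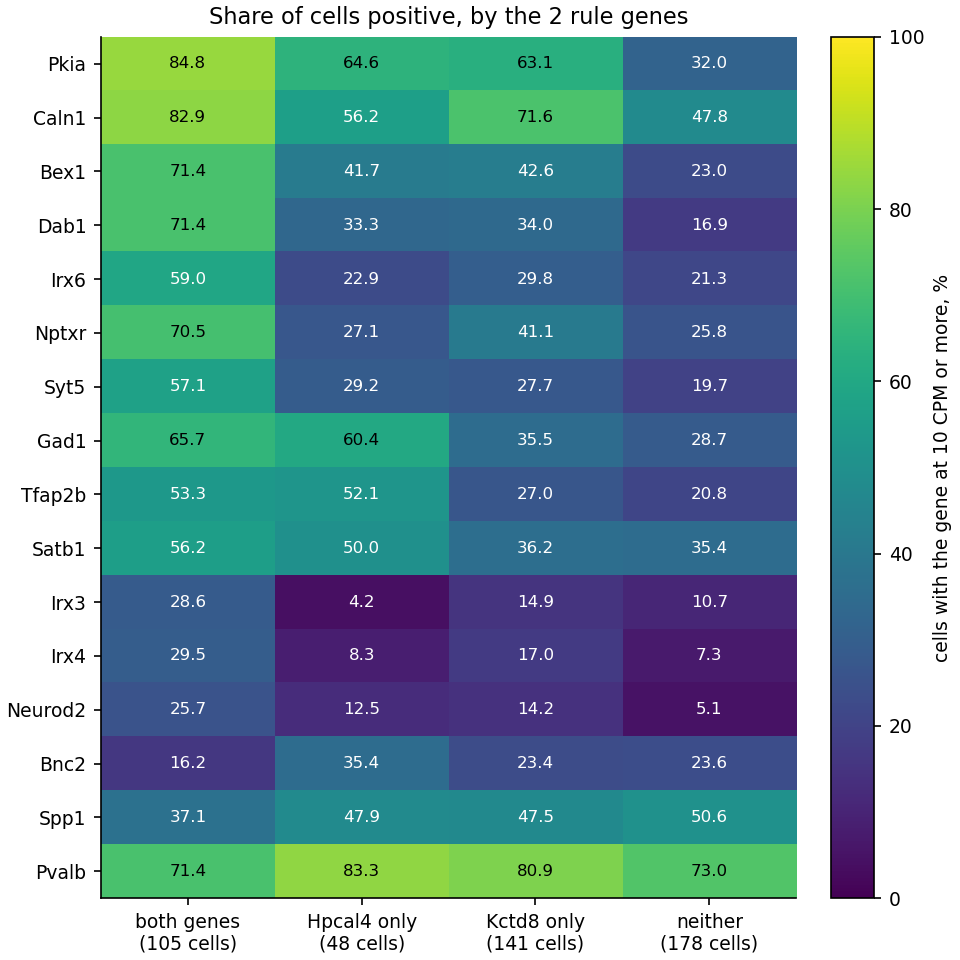
Share of cells (colour and printed value, %) with each of 16 genes at 10 CPM or more, in cells with both rule genes, Hpcal4 only, Kctd8 only and neither. Irx6 stands at 59.05% with both genes and below 30% in the other 3 classes, while Gad1 and Tfap2b stand above 50% in both classes with Hpcal4.

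Lists of ion channel and receptor genes held at most 1 call each, against 0.422% of all compared genes, and no list is set apart by it. Of 24 compared potassium channel genes 1 was higher, Kcnab1, a cytoplasmic Kv beta subunit, positive in 55.2% and 28.9% (44.1% weighted), and weighted other cells gave 0 calls. Of 9 sodium channel genes and 11 calcium and HCN channel genes 0 were higher. Of 11 ionotropic glutamate receptor genes 1 was higher, the AMPA receptor subunit Gria1, positive in 35.2% and 14.4% (16.6% weighted), while Gria3 went the other way in level with means of 89.6 CPM in double-positive cells and 143.8 CPM in other cells. Of 14 GABA-A and glycine receptor genes and 6 nicotinic receptor genes 0 were higher. The nicotinic subunit gene Chrna4 was positive in 62.9% and 34.1% (46.6% weighted).

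Adhesion and guidance lists also held at most 1 call each, against the same 0.422%. Of 16 compared protocadherins, contactins and sidekicks 1 was higher, Dscaml1, positive in 36.2% and 14.2% (17.6% weighted). Of 19 axon guidance genes 1 was higher, Slit1. Of 9 classical cadherins 0 were higher. Cdh8, which is listed among markers of T-box RGCs and was positive in too few cells to be compared, was at 22.9% of double-positive cells and 5.72% of other cells (6.58% weighted). Pcdh7 and Cntn5, adhesion proteins as well, were less frequent in double-positive cells, at 58.1% and 24.8%, against 65.4% and 31.3% of other cells (78.04% and 40.8% weighted).

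RNA of genes listed as markers of other retinal cells was also more frequent in double-positive cells. The lists overlap, with Isl1 listed for both bipolar and ganglion cells, so their counts do not show the source of the RNA. At least 3 of 8 amacrine cell markers were positive in 60.95% of double-positive cells (50.9% to 70.3%) and 37.6% of other cells (46.9% weighted). All 7 compared amacrine markers were above the weighted other cells, with a median of 13.7 points, against 1.42 points over all compared genes. Of the 7, 2 were among the 47 higher genes, which were 0.422% of all compared genes. Gad1, which makes GABA, ran from 0 over 57.6 to 1750 CPM in double-positive cells, against 0 over 0.659 to 1256 CPM in other cells, and was positive in 65.7% (55.8% to 74.7%) and 35.4% (30.5% to 40.6%), 43.4% weighted. Tfap2b, a transcription factor of amacrine and horizontal cells, was positive in 53.3% and 27.2% (29.3% weighted). Both followed Hpcal4: Gad1 was positive in 60.4% of cells with Hpcal4 only and 35.5% with Kctd8 only, and Tfap2b in 52.1% and 26.95%. Gad1 and Tfap2b met in 50 double-positive cells, where independent shares give 36.8, and in 71 other cells, where they give 35.4. The summed level of the 8 markers was 130 to 3833 CPM with a median of 609 in double-positive cells, against 0 to 3638 with a median of 499 in other cells, and none of the 8 was at 0 throughout the double-positive cells. Gad1 overlaps Gad1os on the opposite strand.

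The part of amacrine marker RNA in the other results was not tested, nor was its source. Every double-positive cell held about 130 CPM or more summed over the 8 listed markers. Which of the 8 genes made up that sum is not given, and the sum does not show that the RNA came from amacrine cells. Leaving out the cells with 3 or more of these markers therefore does not leave cells free of the listed RNA. Without cells that had 3 or more amacrine markers, an alternative added after the data were seen, 41 double-positive cells were left and 1.38% of compared genes were higher, 20 of the 47 among them, with 0 lower. Weighted by positive genes as well, 0.402% were higher, 11 of the 47 among them, and 0.44% lower. Of the 20 leading genes 15 stayed past the rule without these cells, and 9 with the weighting added, against 14 with the weighting in all cells. Of the genes named above, Irx6 had a share difference of 40.2 points without these cells and 30.7 points with the weighting added. The differences were 36.3 and 28.2 points for Syt5, and 32.6 and 26.1 points for Kcnip3. These genes were picked from the 20 and do not stand for those that left the rule. Without the larger set of cells positive for Gad1 or Tfap2b, 30 double-positive cells were left, and Pkia was positive in 86.7% and Caln1 in 80% of them. The shares of other cells in that setting are not given, so these values make no comparison.

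Listed markers of rods, bipolar cells, cones and Müller glia were more frequent in double-positive cells too. Median differences were, in that order, 15.3, 16.2, 13.7 and 11.2 points plain and 9.56, 11.4, 10.05 and 3.55 points weighted. Over all compared genes they were 14.8 and 1.42 points. The plain differences were thus close to the general shift or below it, while the weighted ones were above it. Of the compared markers, 8 of 8 for rods, 7 of 9 for bipolar cells, 4 of 4 for cones and 7 of 8 for Müller glia lay above the weighted other cells. The source of this RNA was not tested. At least 3 rod markers were positive in 73.3% of double-positive cells and 57.8% of other cells (60.9% weighted), bipolar markers in 63.8% and 46.9% (59.7% weighted), cone markers in 21.9% and 8.45% (12.4% weighted), and Müller glia markers in 92.4% and 75.7% (90.7% weighted). The rod factor Nr2e3 was 1 of the 47 higher genes, positive in 42.9% and 21.3% (29.2% weighted). Summed rod marker levels ran from 0.688 over 732 to 110131 CPM in double-positive cells, against 0 over 314.96 to 200076 CPM in other cells. At least 3 of 7 microglia markers were positive in 3 double-positive cells (2.86%) and 4.09% of other cells (7.37% weighted), and Cx3cr1 and C1qa in 0 double-positive cells, where 3 counts would be 2.86%, against 1.36% and 3.27% of other cells.

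Double-positive cells were not uniform. Of the 15 genes whose log2(CPM + 1) varied most among them for their level, 11 are photoreceptor genes or genes with high levels in photoreceptors, among them Prph2, Gnat1, Pde6g, Sag and Pde6b, and 2 are the 7SL RNA genes Rn7s1 and Rn7s2. The 2 others are Spp1 and Coch, an extracellular protein that is listed among F-RGC markers. Spp1 was positive in 39 double-positive cells and reached 3800 CPM, and Coch in 54 and reached 2107 CPM. Correlations of log2 values between 2 cells had a median of 0.443 for pairs of double-positive cells, 0.388 for a double-positive and another cell and 0.343 for pairs of other cells. These correlations share the number of genes per cell, which is higher in double-positive cells, and they are given as a description.

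Sets defined by other pairs of genes crossed the chosen cells. Cells positive for Col25a1 and Cdh6 numbered 50, of which 10 were double-positive, 9.52% of the double-positive cells and 20% of the 50, with 10.7 given by independent shares within runs and 13.7 within bins of positive genes. Cells positive for Mmp9 and Htr1d numbered 110, of which 24 were double-positive, 22.9% of the double-positive cells and 21.8% of the 110, with 26.3 given by independent shares within runs and 30.7 within bins.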

How the data were processed

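Single patched RGCs were profiled with Smart-seq2, per the labels' protocols. The deposited table gives estimated counts for 55450 genes and 92 ERCC spike-ins in 472 cells, of which 1.37% are not whole; the authors aligned reads with STAR 2.7.0 to mm10, per the submitters' processing notes, while for the quantification tool and strand setting nothing is given in the sources used here. The deposited key pairs each library name with a cell. Runs A, D and E were read from the flow cell and lane in the library names, B and C from an order number.

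Counts were rounded to whole numbers and scaled to CPM over genes without spike-ins, and a gene was positive at 10 CPM or more. No cell was left out. Doublets were not called, as cells were patched singly, and markers of other retinal cells were counted instead. Intervals of shares are exact 95% ones (Clopper-Pearson), and the limit behind a 0 is 3 cells of the total. Weighted shares used 5 bins of positive genes. Positions are from GENCODE mouse release M21, which holds all 55450 identifiers, on mm10. The members, 105 of 472 cells and set against 367 others, and 37 gene lists were chosen with earlier results of these data known. Of the others, 48 had Hpcal4 only, 141 Kctd8 only and 178 neither. Named genes are the 4 markers, listed genes, the 20 higher genes of largest share difference and the 15 most variable (SD of log2(CPM + 1) above the median of genes of like level, in 20 bins). Others were chosen after their values were seen. Some of these genes are not reported here. The comparison was tested on simulated data, drawn from the same gene means in all cells apart from the changed genes. The difference in positive genes per cell was not simulated, so that test does not cover it. Computations used numpy 2.4.6, pandas 2.3.3, scipy 1.17.1 and matplotlib 3.10.9 under Python 3.11.15, with R 4.3.3 and edgeR 4.0.16 for 1 alternative scaling (TMMwsp).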

Additional observations from a re-analysis of the deposited data

Results flagged for a closer look

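The spike-ins were not used in any comparison. The highest share of counts taken by ERCC spike-ins in a cell was 31.1%, in 1 of the other cells, against at most 3.79% in double-positive cells. In 31 other cells and 0 double-positive cells spike-ins took more than 5% of counts. With a fixed amount added, a high share goes with little RNA from the cell, and its part in the shares above was not tested.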

How the results depend on the processing

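Under 23 alternatives the share differences of Pkia, Caln1 and the 20 leading genes stayed above 0, except that of Gad1, which is 0 by construction without Gad1 cells. These genes were picked on the same cells, and 96.04% of all compared genes lay above 0 in the main comparison. Their signs are therefore a description and no independent check. Those of Kcng4, Nefh and Scn4b turned below 0 under 12, 6 and 8 alternatives, and that of Pvalb above 0 under 1. Shares of compared genes that were higher or lower follow, against 0.422% and 0%. At 50 CPM 46 cells were double-positive, with 0.361% higher, 0.0249% lower, and Pkia and Caln1 positive in 73.9% each. With 3000 or more positive genes 0.218% were higher and 0.0174% lower, and with TMMwsp scaling 0.965% and 0.00919%. Leaving ribosomal and mitochondrial RNA out of totals gave 0.00879% lower. The run mix gave 0.278% higher, 5 bins of positive genes 0.188% and 0.0897%, and 10 bins 0.161% and 0.108%. Without run A 55 double-positive cells were left and 2.44% of genes were higher, and without run B 0.00895% were lower. Without cells rich in rod markers 28 remained, with 2.2% higher, 0.0749% lower and Pkia in 96.4%. Without those rich in bipolar markers 38 remained, with 2.63% higher, 0.0382% lower and Pkia in 94.7%. The shares of other cells under these alternatives are not given, so the Pkia and Caln1 shares in this paragraph make no comparison. Against cells with neither gene 2.71% were higher and 0.00906% lower. The ratio alone gave 1.26% and 1.35%. Of the alternatives added after seeing the data, leaving out amacrine-rich cells gave 41 cells and 1.38% higher, and with weights 0.44% lower. Leaving out Gad1 or Tfap2b cells gave 30 cells, 1.9% higher and 0.0655% lower, and with weights 0.749% lower. The causes were not tested. No paired analysis was possible because the labels pair no cells across groups; run was taken up by weights and by within-run shares instead. Groups of 28 to 55 cells give wide counting intervals, and animals are not named.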
